A study of Mus musculus with 29 samples.

Results

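The windows examined here were those that the deposited methylation table names for a microRNA gene or a microRNA host gene, that is, autosomal windows whose name begins with Mir and a digit or with Mirlet7. There were 333 such windows of 260686 in the table, carrying 147 different names, and all 333 had a value in all 29 libraries. Of the 147 names, 134 had a single window. The 12 names ending in hg, which are long host transcripts that carry a microRNA, took 196 windows, and Mir99ahg (71 windows) and Mir100hg (62 windows) alone made up 39.9% of the windows. A window spanned 416 to 20131 bp (median 5634 bp) and held 50 CpG dinucleotides in 287 cases. Methylation of a named window is therefore an average over about 50 CpGs in and around the gene, and does not resolve a single hairpin.

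Lung DNA came from 13-week-old Balb/c offspring, described by the study as female, and was measured by whole-genome enzymatic methyl-sequencing (WGMS), which reports the percentage of methylated cytosines (%DNAm). Dams received either saline (Sham) or fine particulate matter (PM2.5) through the nose from before mating until their pups were weaned, and the offspring were sensitised and challenged with ovalbumin (OVA) to induce allergic airway disease (AAD) or received nebulised saline. This gave 7 libraries each of Sham, Sham-OVA and PM and 8 of PM-OVA. The labels give the tissue as Lung (RML), whereas the study's methods describe a homogenised piece of the right lower lobe. Either holds all cell types of the lung, so a change in the share of a cell type and a change within cells cannot be told apart in any value below. The labels do not say which offspring shared a dam, and p-values measure the spread between these libraries. The table holds no read counts, so the depth behind a percentage is unknown here. Sham replicate 1 stood apart from the other libraries, with values in 1224 of 1230 Y chromosome windows against 29 to 46 in the other 28 libraries, which goes against its description as female. Without it, the counts of microRNA windows that changed by at least 10 percentage points were the same (6 and 4 in the comparisons below).

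MicroRNAs are short RNAs cut from a hairpin within a longer primary transcript, and they lower the output of messenger RNAs that pair with their seed, the stretch of bases near the 5′ end. Many are restricted to certain lineages. In the lung, miR-142, miR-150 and miR-155 are mainly known from leucocytes, whereas the miR-30 family is abundant in epithelium and the miR-143/145 pair in smooth muscle. DNA methylation near the start of a primary microRNA transcript is generally low where the transcript is made.

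Each of the windows that changed most after OVA challenge, other than the one in Mir99ahg, held or adjoined the hairpin of a well-known microRNA. The mature sequences from the hairpins of these loci are shown because they are the products of the genes whose DNA changed. RefSeq (GRCm38.p6) listed 7, each with its own seed, given here 5′ to 3′ with the seed (bases 2 to 8) in capitals. The entry mmu-miR-142b is cut from the strand opposite to Mir142.
mmu-miR-142a-5p: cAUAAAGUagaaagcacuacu
mmu-miR-142a-3p: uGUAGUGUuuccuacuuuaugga
mmu-miR-142b: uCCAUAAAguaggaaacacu
mmu-miR-155-5p: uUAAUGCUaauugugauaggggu
mmu-miR-155-3p: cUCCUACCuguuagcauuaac
mmu-miR-30a-5p: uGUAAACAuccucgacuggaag
mmu-miR-30a-3p: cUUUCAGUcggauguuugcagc

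The DNA around 2 of these hairpins is shown because both lie in windows that fell after OVA and differ in CpG content. Each stretch is 300 bases of GRCm38 with every CpG in capitals. It is named for the hairpin at its centre, which is shorter (Mir155 at chr16:84714140-84714204, Mir142 at chr11:87756864-87756927), and the rest is flanking DNA. The stretch centred on the Mir155 hairpin held 2 CpGs and the stretch centred on the Mir142 hairpin 11.
pre-miR-155, chr16:84714023-84714322, plus strand: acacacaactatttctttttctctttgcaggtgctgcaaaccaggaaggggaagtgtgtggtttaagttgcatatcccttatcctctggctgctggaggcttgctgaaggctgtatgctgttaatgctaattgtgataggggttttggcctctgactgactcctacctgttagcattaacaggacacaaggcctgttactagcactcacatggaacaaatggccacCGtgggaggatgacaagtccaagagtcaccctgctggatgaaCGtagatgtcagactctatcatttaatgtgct
pre-miR-142, chr11:87756746-87757045, plus strand: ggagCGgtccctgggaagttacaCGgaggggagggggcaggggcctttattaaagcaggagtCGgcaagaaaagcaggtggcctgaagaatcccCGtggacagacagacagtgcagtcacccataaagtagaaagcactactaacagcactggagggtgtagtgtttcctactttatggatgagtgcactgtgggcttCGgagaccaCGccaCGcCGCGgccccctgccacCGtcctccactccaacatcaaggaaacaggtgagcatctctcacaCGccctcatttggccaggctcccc

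In unchallenged Sham lungs, 254 of the 333 windows had a mean above 60% methylation, 41 were under 20%, and 38 lay between. The mean over the 333 windows was 64.8% ± 0.377 (SD, n = 7) in Sham, 65.0% ± 0.449 (n = 7) in PM, 63.7% ± 0.667 (n = 7) in Sham-OVA and 63.2% ± 0.445 (n = 8) in PM-OVA. Single libraries ranged from 64.2 to 65.2% in Sham and 64.3 to 65.8% in PM, against 62.9 to 64.5% in Sham-OVA and 62.6 to 63.7% in PM-OVA. The PM-OVA libraries all lay below the PM libraries, whereas Sham-OVA and Sham overlapped. Over the tested autosomal windows with a value in every library the group means were 69.0, 69.3, 68.7 and 68.4% in the same order.

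Whether OVA challenge moved these windows was asked separately in the offspring of Sham and of PM dams. A window was called a differentially methylated region (DMR) when its limma adjusted p was under 0.05 and its group means differed by at least 10 percentage points. In Sham offspring 6 microRNA windows were DMRs (1.8%, against 0.775% of all 259167 tested windows), of which 2 rose (0.601%, against 0.479%) and 4 fell (1.2%, against 0.296%). In PM offspring 4 were DMRs (1.2%, against 0.584%), and all 4 fell (1.2%, against 0.321%), with 0 rising (against 0.263%). The 4 that fell were the same windows in both, and they belong to 2 loci, Mir142hg and Mir155hg. Several windows of 1 gene share their sequence context and are not independent. Which kind of offspring had more DMRs depended on the thresholds, as given further on.

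**Figure D1:**
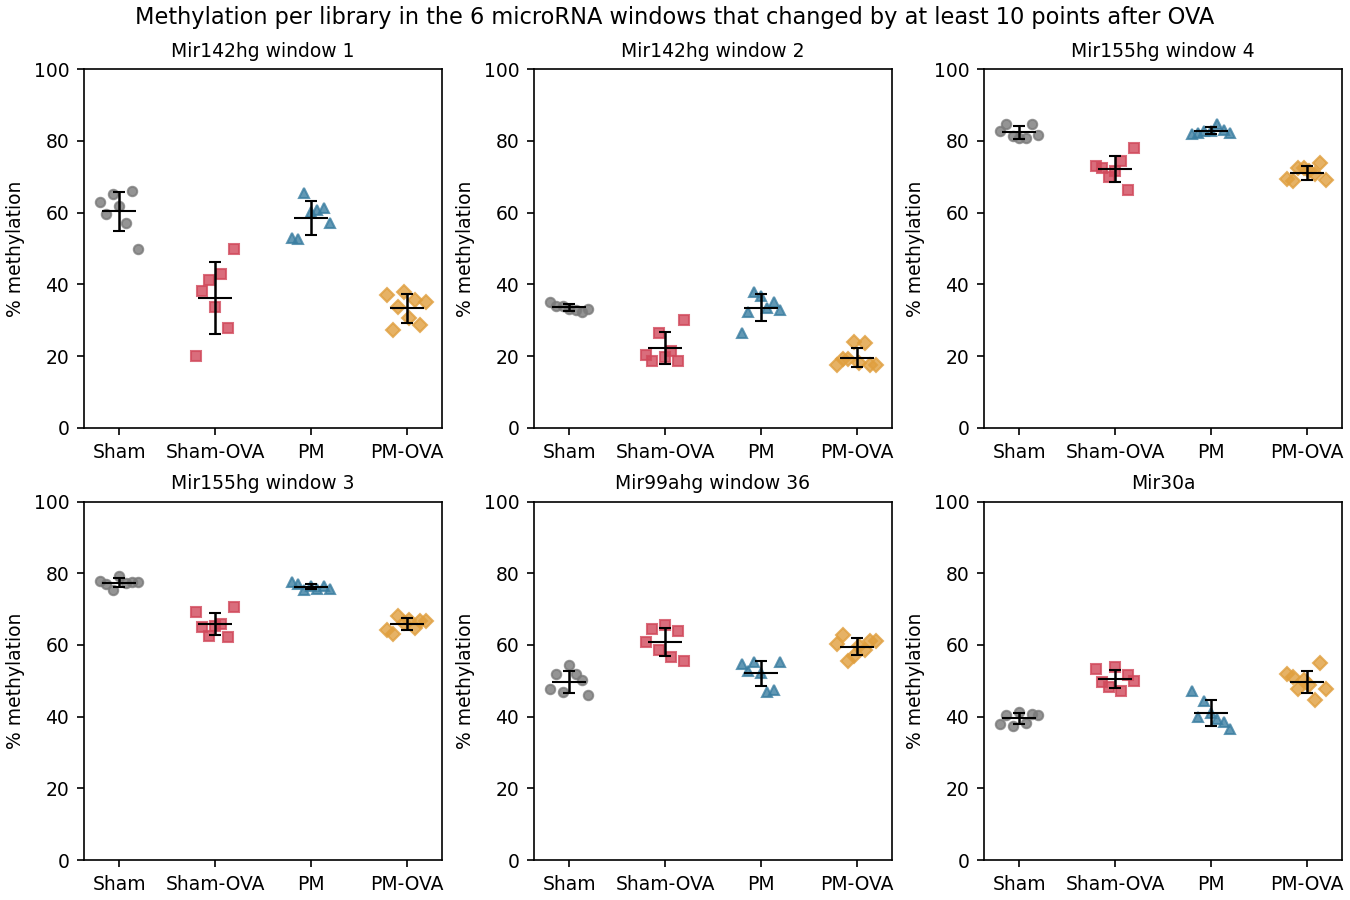
Percent methylation of each library (points) in the 6 windows called for OVA, with the group mean and SD (bars) on an axis from 0 to 100%. Mir142hg and Mir155hg windows were lower and Mir99ahg window 36 and Mir30a were higher in both OVA groups, with Mir142hg window 1 spread from 19.9 to 50% in Sham-OVA.

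Mir142hg (ENSMUSG00000084796) is the host transcript of Mir142, a microRNA of blood cells, and it had the largest change of the 333 windows. Its first window (chr11:87755394-87757156, GRCm38) contained the annotated start of the host transcript and the hairpin. Sham libraries had 49.9 to 65.9% methylation (median 61.9%) and Sham-OVA libraries 19.9 to 50% (median 38.2%). PM libraries had 52.5 to 65.5% (median 60.3%) and PM-OVA libraries 27.3 to 37.9% (median 34.4%). The PM groups did not overlap, and the Sham groups touched, with the highest Sham-OVA library at the level of the lowest Sham library. The mean fell by 24.1 points in Sham offspring (60.4% ± 5.53 to 36.3% ± 10.02, n = 7 and 7; log2 ratio -1.43, SE 0.20, limma adjusted p = 3.72e-06). In PM offspring it fell by 25.3 points (58.6% ± 4.74 to 33.3% ± 3.96, n = 7 and 8; log2 ratio -1.48, SE 0.19, adjusted p = 9.7e-07).

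The second window of Mir142hg (chr11:87757157-87760816) ran from just behind the hairpin to just past the start of Tspoap1, a protein-coding neighbour. The host transcript ends at 87757270 and Tspoap1 starts at 87760541. Most of this window thus lies outside the host transcript, upstream of Tspoap1. Methylation was 32.5 to 35.2% (median 33.2%) in Sham, 18.7 to 30.1% (median 20.4%) in Sham-OVA, 26.4 to 38.0% (median 33.3%) in PM and 17.5 to 23.98% (median 18.7%) in PM-OVA. OVA libraries were below unchallenged ones within each kind of offspring, with no overlap. The fall was 11.4 points in Sham offspring (limma adjusted p = 8.13e-06) and 13.9 points in PM offspring (adjusted p = 1.48e-07).

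The windows around Mir142hg moved in both directions. The next window downstream, named for Tspoap1, was 4.80 points higher in Sham-OVA (limma adjusted p = 0.00113) and 4.65 points higher in PM-OVA (adjusted p = 0.000825). A window further inside Tspoap1, about 20.8 to 22.2 kb from the Mir142 hairpin, rose from 18.7% ± 1.96 to 34.98% ± 4.48 in Sham offspring and from 18.1% ± 3.38 to 33.8% ± 3.8 in PM offspring, that is by 16.3 and 15.7 points (adjusted p = 1.14e-07 and 4.68e-08). A window of Supt4a, 12.6 to 16.2 kb upstream, fell by 5.02 and 4.48 points (adjusted p = 1.09e-05 and 3.88e-05).

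**Figure D2:**
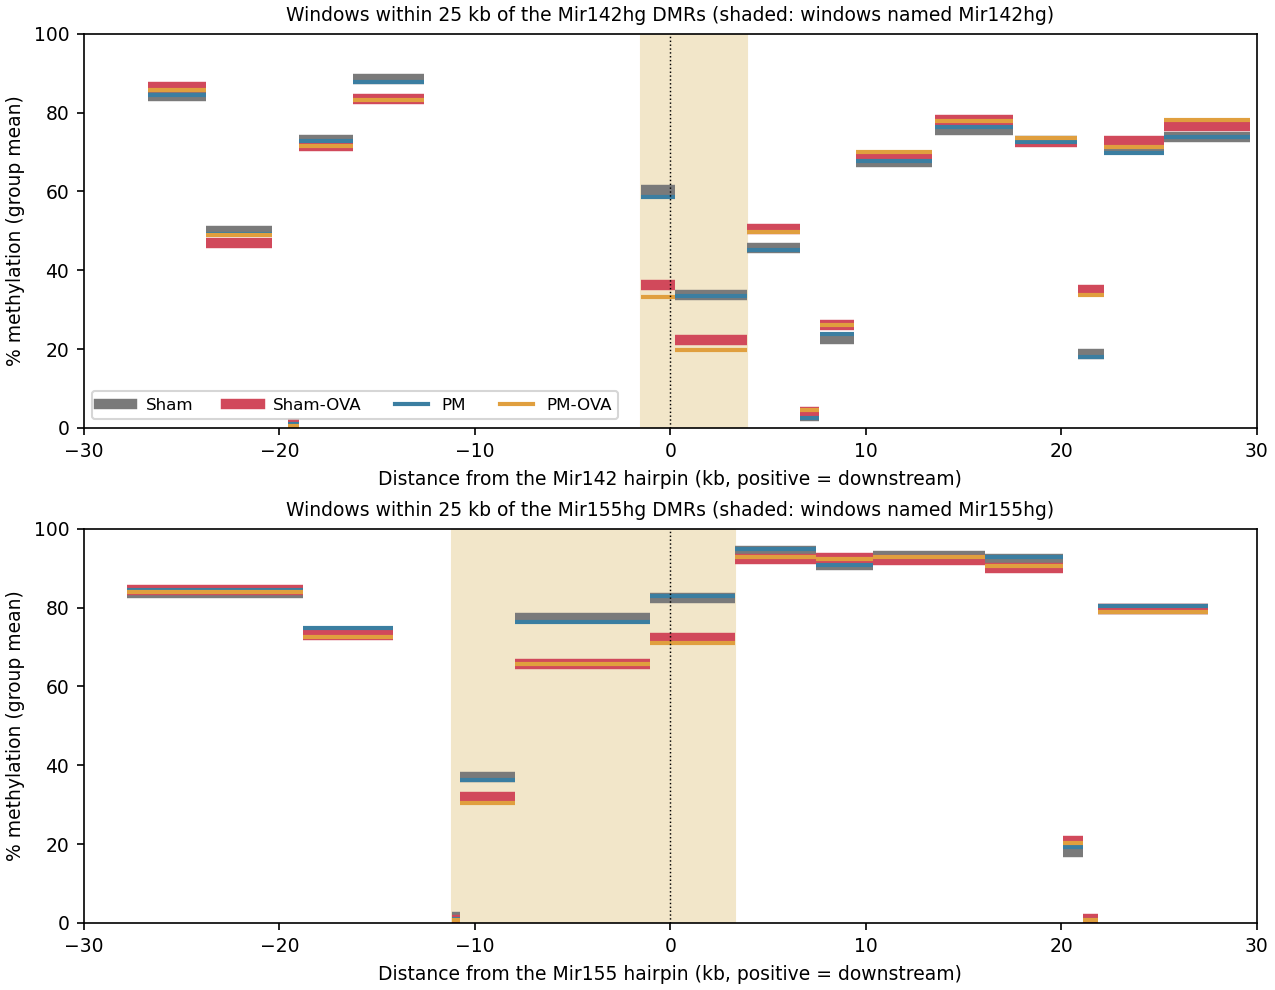
Group mean methylation (%) of every window within 25 kb of the Mir142hg and Mir155hg DMRs against distance in kb from the hairpin, with thick lines for Sham and Sham-OVA, thin lines for PM and PM-OVA, and shading for windows named Mir142hg or Mir155hg. The 2 OVA groups lie together below the unchallenged groups in the shaded windows, except at the unmethylated start of Mir155hg, and the Tspoap1 window near 21 kb goes up from 18.7 to 34.98% in Sham offspring.

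Mir155hg (ENSMUSG00000097418), once called Bic, gives rise to miR-155, which is induced when lymphocytes and myeloid cells are activated. Its 4 windows formed a gradient. The first (chr16:84703012-84703427) covers the start of the transcript and was at 0 to 3.24% in all 29 libraries. It did not pass the test in Sham offspring (limma adjusted p = 0.223) or in PM offspring (adjusted p = 0.816).

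The second window (chr16:84703428-84706206) had 36.2 to 37.9% in Sham and 28.2 to 36.1% in Sham-OVA, and 34.4 to 37.4% in PM and 27.6 to 33.9% in PM-OVA. It fell by 5.1 points in Sham offspring (limma adjusted p = 0.000365) and by 5.83 points in PM offspring (adjusted p = 3.52e-05), short of the DMR threshold. OVA libraries were below unchallenged libraries of the same kind without overlap.

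The third window (chr16:84706207-84713136), in the body of the gene, fell from 77.4% ± 1.19 to 65.8% ± 3.12 in Sham offspring (11.6 points; log2 ratio -0.81, SE 0.07; limma adjusted p = 2.61e-09). In PM offspring it fell from 76.3% ± 0.803 to 65.8% ± 1.68 (10.5 points; log2 ratio -0.72, SE 0.06; adjusted p = 3.42e-09). All 14 unchallenged libraries were at 75.2% or above and all 15 OVA libraries at 70.5% or below.

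The fourth window (chr16:84713137-84717482) contained the Mir155 hairpin, around which CpGs were sparse, and extended past the end of the gene. Sham libraries ranged from 80.7 to 84.9% (median 81.7%), Sham-OVA from 66.3 to 78.1% (median 72.5%), PM from 81.8 to 84.8% (median 82.7%) and PM-OVA from 69.0 to 73.9% (median 71.2%). No OVA library reached the lowest unchallenged library. The fall was 10.2 points in Sham offspring (limma adjusted p = 1e-07) and 11.7 points in PM offspring (adjusted p = 5.04e-09). Because 10.2 is close to the threshold, leaving out 1 of 4 single libraries (Sham replicate 2 or 6, or Sham-OVA replicate 3 or 6) took it under 10 points, to as little as -9.21, while the adjusted p stayed at or under 5.17e-07. The adjoining Mrpl39 window fell by 2.06 and 2.13 points.

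Mir30a (ENSMUSG00000065405) encodes a member of the miR-30 family and was 1 of the 2 windows that rose by at least 10 points in Sham offspring. Its window (chr1:23263338-23273501) was 10164 bp long and held the hairpin and the 2000 bp upstream of it. Methylation was 37.3 to 41.4% (median 40.4%) in Sham and 47.1 to 53.8% (median 49.98%) in Sham-OVA. In PM it was 36.6 to 47.2% (median 39.9%) and in PM-OVA 44.7 to 55.1% (median 49.6%). The Sham groups were separate, and the PM groups overlapped. The rise was 10.96 points in Sham offspring (log2 ratio 0.63, SE 0.08, limma adjusted p = 2.11e-06) and 8.67 points in PM offspring (0.50, SE 0.08, adjusted p = 2.15e-05). The nearest window downstream, named Gm27028, holds Mir30c-2, whose microRNA has the same seed as miR-30a-5p. It was at 69.3% in Sham and did not pass the test in either kind of offspring (adjusted p = 0.188 and 0.751). Upstream, the window of Gm24176 fell by 3.59 and 6.29 points (adjusted p = 2.35e-05 and 3.72e-09) and that of Gm29506 fell by 3.82 and 6.81 points (adjusted p = 0.000212 and 3.36e-08), and the 2 windows of Gm6420 between them and Mir30a did not pass the test.

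Mir99ahg window 36 (chr16:77500159-77505372) was the other window that rose. It is partly methylated and lies within the transcript, far from any microRNA hairpin. Sham libraries had 45.9 to 54.3% (median 50.1%), Sham-OVA 55.6 to 65.7% (median 60.8%), PM 46.99 to 55.4% (median 52.9%) and PM-OVA 55.5 to 62.9% (median 60.1%). All 15 OVA libraries were above all 14 unchallenged libraries. The rise was 11.01 points in Sham offspring (limma adjusted p = 1.24e-05) and 7.42 points in PM offspring (adjusted p = 0.000625).

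The difference in OVA response between PM and Sham offspring was tested directly and was called for 0 of these 6 windows. For Mir99ahg window 36 the interaction was -3.6 points (limma adjusted p = 0.743) and for Mir30a -2.29 points (adjusted p = 0.815). The 2 windows that passed 10 points in Sham offspring alone were thus not shown to differ between the arms.

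**Figure D3:**
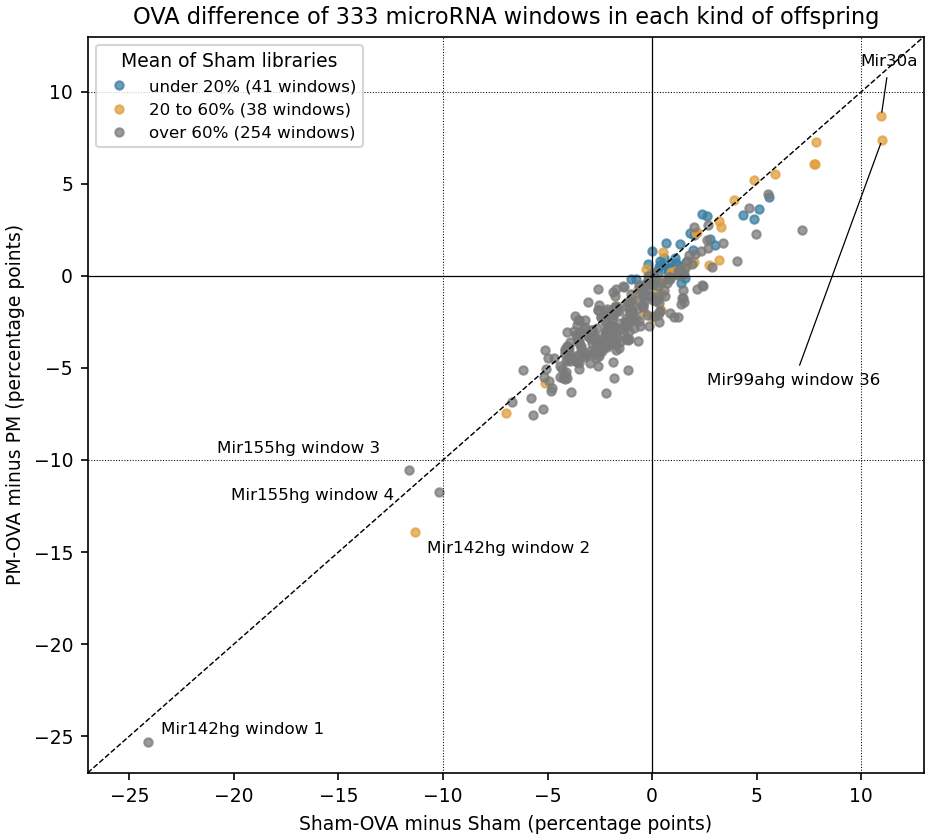
OVA difference of each of the 333 windows in percentage points, in Sham offspring (horizontal axis) and PM offspring (vertical axis), coloured by the Sham mean, with dotted lines at 10 points and a dashed line of equal change. The points follow the dashed line (r = 0.941), with Mir142hg window 1 at -24.1 and -25.3 far from the rest.

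Below the DMR threshold, many more windows moved by a few points. With an adjusted p under 0.05 and no minimum difference, 38 windows rose in Sham offspring (11.4%, against 13.3% of all tested windows) and 119 fell (35.7%, against 22.3%). In PM offspring 29 rose (8.71%, against 9.26%) and 171 fell (51.4%, against 34.8%). In all, 24 windows rose in both (7.21%, against 7.57% of all tested windows) and 112 fell in both (33.6%, against 19.7%), and 0 were called in opposite directions. The 2 sets of differences share no library and had r = 0.941 and rho = 0.902 over the 333 windows, which are not independent replicates.

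The share of falling windows was lower once the 2 host genes with most windows were set aside. Without Mir99ahg and Mir100hg, 48 of 200 windows fell in Sham offspring (24%) and 74 in PM offspring (37%), against 22.3% and 34.8% of all tested windows. Over all tested windows the median difference in Sham offspring was -0.414 points and in PM offspring -1.03, and over the 333 windows -1.2 and -2.08. After each library was centred on its own median shift, the split in PM offspring changed from 29 higher and 171 lower to 51 higher and 128 lower, and in Sham offspring from 38 and 119 to 53 and 110. The shares of all tested windows called after centring are not given, so these counts have no background. The centred medians in Sham offspring were -0.0207 points over all tested windows and -0.801 over the 333. In PM offspring they were -0.0534 and -1.1.

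Some windows separated the groups completely. In 23 windows all 15 OVA libraries lay below all 14 unchallenged libraries (6.91%, against 2.67% of 258503 windows with a value in every library), and in 1 window, Mir99ahg window 36, all lay above (0.3%, against 0.592%). Of those 23, 12 belonged to Mir99ahg or Mir100hg. The others included Mir150, Mir17hg, the 2 Mir155hg DMRs, Mir1952 and Mir6354.

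The direction went with the starting level. To keep the level apart from the difference, windows were sorted by the mean of the other kind of offspring. Of 253 windows above 60% in PM lungs, 114 fell and 10 rose after OVA in Sham offspring (45.1 and 3.95%), against 25.4 and 11% of all tested windows of that class. Of 40 windows under 20%, 15 rose and 1 fell (37.5 and 2.5%, against 20.1 and 4.46%). In PM offspring, sorted by Sham lungs, 163 of 254 highly methylated windows fell and 4 rose (64.2 and 1.57%, against 40.2 and 6.9% of all tested windows of that class). Mir99ahg and Mir100hg raised the falling shares of this class. Without them, 43 of 133 highly methylated windows fell and 7 rose in Sham offspring, and 68 of 134 fell and 2 rose in PM offspring. Of 41 weakly methylated windows 15 rose and 0 fell (36.6%, against 17.6% rising and 5.63% falling). Highly methylated microRNA windows thus mostly lost and weakly methylated ones mostly gained methylation among those called, as did tested windows in general.

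By lineage, the haematopoietic list held 9 windows of Mir142hg, Mir155hg, Mir150, Mir17hg and Mir146. Mir142hg supplied 2 of them and Mir155hg 4, and these include the 4 falling DMRs described above. In both kinds of offspring 7 of its 9 windows fell and 0 rose, with a median in Sham offspring of -6.96 points and in PM offspring of -7.43, against -0.414 and -1.03 over all tested windows, of which 22.3 and 34.8% fell. Mir150 (chr7:45119284-45123548), whose microRNA marks mature lymphocytes, fell from 42.7% ± 1.32 to 35.7% ± 1.89 in Sham offspring (limma adjusted p = 9.32e-06). In PM offspring it fell from 41.9% ± 1.15 to 34.5% ± 2.6 (adjusted p = 1.36e-06). Its window also overlaps other annotated genes. Mir17hg (chr14:115042498-115047701), the transcript of the miR-17 to miR-92 cluster linked to lymphocyte proliferation, fell from 71.0% to 66.8% (4.18 points, adjusted p = 2.7e-05) and from 71.2% to 67.2% (3.99 points, adjusted p = 2.23e-05). For both genes the OVA and unchallenged libraries did not overlap.

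The remaining haematopoietic windows did not pass the test in either kind of offspring. Mir146, whose product restrains innate immune signalling, differed by -0.437 points in Sham offspring (limma adjusted p = 0.677) and -1.56 points in PM offspring (adjusted p = 0.0603), and the other was the unmethylated start of Mir155hg.

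Marker genes of cell types were read beside these windows. Of 58 windows named for 12 leucocyte genes such as Ptprc, Cd3e and Cd79a, 24 fell and 8 rose in Sham offspring (41.4 and 13.8%, against 22.3 and 13.3% of all tested windows). In PM offspring 28 fell and 7 rose (48.3 and 12.1%, against 34.8 and 9.26%). Their mean was 65.8 to 67.1% in Sham, 62.6 to 64.0% in Sham-OVA, 66.4 to 67.4% in PM and 62.7 to 64.5% in PM-OVA libraries, without overlap. Of 41 windows of 10 lung epithelial genes, 17 rose and 1 fell in Sham offspring (41.5 and 2.44%) and 8 rose and 0 fell in PM offspring (19.5 and 0%), read against the shares of all tested windows just given, and their mean was 50.7 to 52.7%, 52.3 to 54.3%, 51.8 to 52.6% and 52.0 to 53.4% in the same order of groups. Of 69 windows of 5 endothelial genes, 33 rose and 5 fell in Sham offspring (47.8 and 7.25%) and 31 rose and 8 fell in PM offspring (44.9 and 11.6%), and their mean was 64.2 to 67.0%, 67.0 to 69.3%, 63.9 to 67.8% and 66.9 to 69.2%. The part of cell composition in the microRNA windows was not tested.

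**Figure D4:**
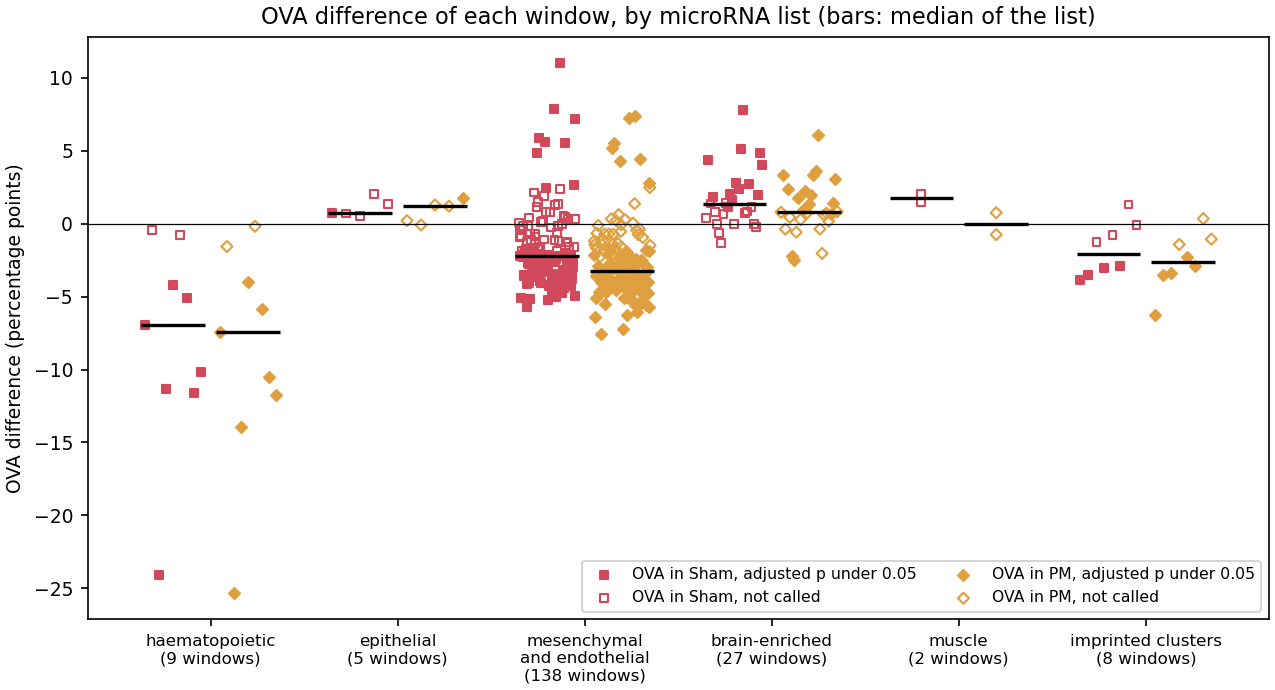
OVA difference in percentage points of each window in 6 lists of microRNA genes, in Sham offspring (squares) and PM offspring (diamonds), filled where the limma adjusted p was under 0.05, with the list median as a bar. The haematopoietic medians lie at -6.96 and -7.43 points, and the brain-enriched list is centred above 0 at 1.39 and 0.794 points.

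The mesenchymal and endothelial list had 138 windows, of which Mir99ahg and Mir100hg supplied 133. In it 9 windows rose and 71 fell in Sham offspring and 7 rose and 98 fell in PM offspring, with medians of -2.22 and -3.26 points. The falling shares were 51.4 and 71%, against 22.3 and 34.8% of all tested windows, and against 25.4 and 40.2% in the class above 60%, in which most of the list lay. These 2 genes are described further on.

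The epithelial and muscle lists held few windows. In the epithelial list (Mir203, Mir205hg, Mir34a and Mir375; 5 windows), 1 window rose in each kind of offspring (20%, against 13.3 and 9.26% of all tested windows), with medians of 0.758 and 1.21 points. The window that rose was Mir375 in Sham offspring (0.758 points, limma adjusted p = 0.0412) and Mir203, known from skin epithelium, in PM offspring (1.75 points, adjusted p = 0.035). Both calls were lost when any of 8 single libraries was left out. Mir34a, a p53 target, had the largest difference averaged over both, 2.03 points in Sham offspring (adjusted p = 0.0723) and 1.21 points in PM offspring (adjusted p = 0.28). The muscle list had 2 windows and 0 calls, and Mir1a-1 differed by 2.03 and 0.758 points (adjusted p = 0.158 and 0.602). No autosomal window was named for a let-7 gene.

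In the imprinted Meg3 to Mirg domain of chromosome 12, 4 of 8 windows fell in Sham and 5 of 8 in PM offspring, and 0 rose, with medians of -2.06 and -2.59 points. The shares of 50 and 62.5% stand against 25.4 and 40.2% of all tested windows above 60%, the class of all 8. Mir673 (chr12:109571931-109576922), a microRNA of that domain, fell most, from 83.4% ± 1.51 to 79.5% ± 2.02 (limma adjusted p = 0.00294) and from 84.5% ± 2.01 to 78.2% ± 1.9 (adjusted p = 6.34e-06). The 8 windows were at 77.5 to 89.1% in Sham lungs.

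In the brain-enriched list the called windows mostly gained methylation. Of 27 windows of Mir9-3hg, the Mir124 genes and Mir7-2, 13 rose in each kind of offspring and 0 and 2 fell, with medians of 1.39 and 0.794 points. The rising share was 48.1%, against 13.3 and 9.26% of all tested windows. Of its 19 windows under 20%, 10 rose in Sham and 12 in PM offspring, a class in which 20.1 and 17.6% of all tested windows rose. The median level of the 27 windows in Sham lungs was 11.1%. Of the 14 windows of Mir9-3hg, the host of a microRNA of neural progenitors, 8 rose in each kind of offspring (57.1%), 6 of them in both. Window 10 of that gene (chr7:79515600-79517243) rose from 27.7% ± 1.3 to 35.5% ± 3.51 in the offspring of Sham dams (limma adjusted p = 2.08e-05) and from 29.2% ± 1.47 to 35.3% ± 2.8 in PM offspring (adjusted p = 0.00021). Window 4, which holds the Mir9-3 hairpin, stayed low but rose from 3.51% ± 2.03 to 5.54% ± 1.76 (adjusted p = 0.0146) and from 3.19% ± 0.864 to 5.42% ± 0.745 (adjusted p = 0.00671).

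Other single genes that gained were chosen after their values were seen. Mir130a (chr2:84740814-84743418), described in vascular cells, rose from 25.2% ± 1.03 to 33.0% ± 2.6 in the offspring of Sham dams (limma adjusted p = 4.05e-06) and from 25.8% ± 2.35 to 31.9% ± 1.91 in PM offspring (adjusted p = 3.76e-05). Mir10a (chr11:96316928-96318715), which lies beside Hoxb4, rose by 5.62 and 4.32 points (adjusted p = 0.000168 and 0.00194). Mir143 (chr18:61648951-61652112), a smooth muscle microRNA whose window also covers the end of the transcript Carmn, rose by 7.17 points in Sham offspring (66.6% ± 2.7 to 73.8% ± 1.82; adjusted p = 8.86e-05) and differed by 2.48 points in PM offspring (70.01% ± 1.98 to 72.5% ± 3.06; adjusted p = 0.0924). The interaction for Mir143 was -4.68 points with an adjusted p of 0.616, so the arms were not shown to differ.

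Among the highly methylated microRNA genes, Mir1952 (chr2:138806834-138821176) fell from 80.0% ± 1.62 to 73.3% ± 1.61 in the offspring of Sham dams (limma adjusted p = 6.86e-07) and from 79.3% ± 0.984 to 72.5% ± 1.91 in PM offspring (adjusted p = 2.89e-07). Mir6354 (chr1:169016172-169026729) fell by 5.77 and 6.65 points (adjusted p = 3.2e-06 and 2.15e-07). The function of both is little known. Their windows were long, at 14343 and 10558 bp, and in both genes the OVA and unchallenged libraries did not overlap.

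Mir99ahg and Mir100hg are related genes that each carry a miR-99/100, a let-7 and a miR-125b hairpin. They are compared because they hold the same kind of cluster in different surroundings. Of their 5′ products, the miR-125b-5p of both loci is identical, and miR-100-5p and miR-99a-5p differ by the substitution A16U, counted from base 1 of miR-100-5p. These 5′ products and that of Mirlet7c-1 are given from RefSeq with the seed in capitals, and let-7a-5p of Mirlet7a-2 was not compared.
mmu-miR-99a-5p: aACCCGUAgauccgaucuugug
mmu-miR-100-5p: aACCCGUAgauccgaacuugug
mmu-let-7c-5p: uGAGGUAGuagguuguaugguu
mmu-miR-125b-5p: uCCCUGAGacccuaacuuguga

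Mir99ahg was the more methylated of the 2, with a median of 84.6% over its windows in Sham lungs against 66.9% in Mir100hg. In Mir99ahg 47 of 71 windows fell and 5 rose in Sham offspring, and 56 fell and 4 rose in PM offspring. In Mir100hg 24 of 62 fell and 2 rose in Sham offspring, and 41 fell and 2 rose in PM offspring. The falling shares were 66.2 and 78.9% in Mir99ahg and 38.7 and 66.1% in Mir100hg, against 25.4 and 40.2% of all tested windows above 60%. The medians were -2.56 and -3.65 points for Mir99ahg and -2.01 and -3.03 points for Mir100hg. Of the highly methylated windows of Mir99ahg (66 over 60% in PM lungs), 47 fell and 3 rose in Sham offspring, whereas of its 4 windows between 20 and 60%, 2 rose and 0 fell. In PM offspring, sorted by Sham lungs, 55 of 66 fell and 2 rose above 60%, and 2 of 4 rose and 1 fell between 20 and 60%. Mir100hg window 17 (chr9:41421991-41428806) had the largest fall of either gene in both kinds of offspring, from 70.6% ± 1.03 to 64.9% ± 2.32 (limma adjusted p = 8.61e-06) and from 71.5% ± 0.988 to 64.0% ± 1.43 (adjusted p = 5.65e-08).

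**Figure D5:**
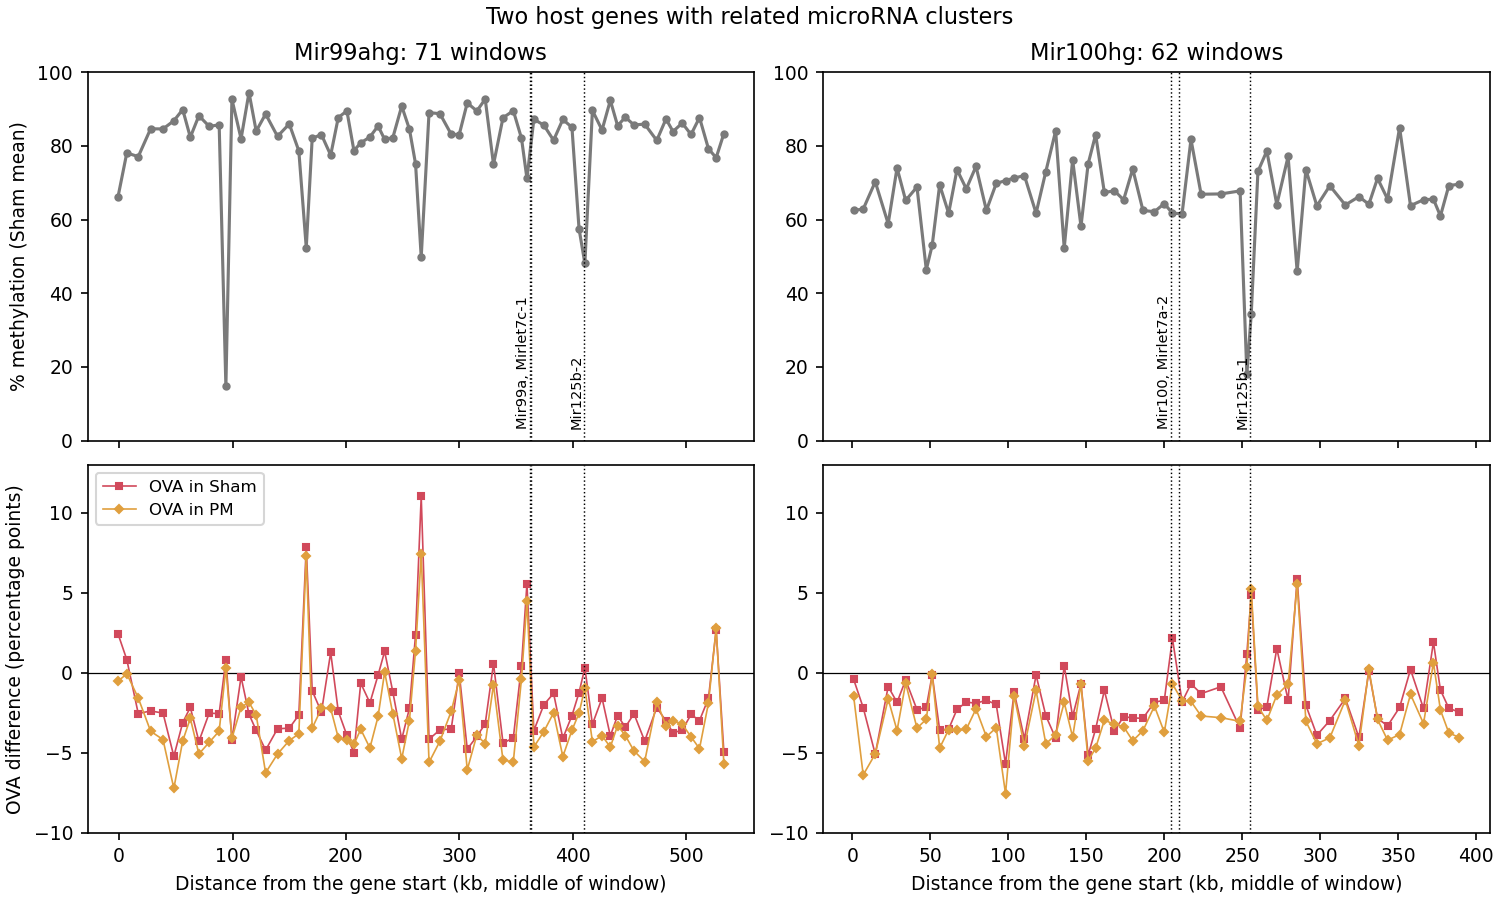
Mean methylation in Sham lungs (%, upper panels) and OVA difference in both kinds of offspring (percentage points, lower panels) of the windows of Mir99ahg and Mir100hg, against distance from the gene start in kb, with hairpins as dotted lines. Most windows lie below 0, and the largest rise, 11.01 points in Mir99ahg window 36, is at a dip of the methylation level.

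The windows that hold the hairpins of the 2 clusters are given side by side, and no difference between the genes was tested. The window with Mir99a and Mirlet7c-1 (chr16:77597969-77606262) was at 86.3 to 88.3% in Sham and 81.9 to 86.3% in Sham-OVA, and at 85.8 to 89.5% in PM and 81.7 to 84.7% in PM-OVA. It fell by 3.62 points (limma adjusted p = 0.000275) and 4.64 points (adjusted p = 4.22e-06). The corresponding windows of Mir100hg did not pass the test: that of Mir100 differed by 2.15 and -0.699 points (adjusted p = 0.134 and 0.633) and that of Mirlet7a-2 by -1.82 and -1.74 points (adjusted p = 0.121 and 0.11).

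Of the miR-125b hairpin windows, that of Mir100hg passed the test. The Mir125b-1 window of Mir100hg (chr9:41581431-41584491) was at 30.9 to 38.1% (median 33.9%) in Sham and 37.4 to 42.3% (median 39.0%) in Sham-OVA, and at 31.6 to 36.3% (median 35.01%) in PM and 37.8 to 43.2% (median 39.2%) in PM-OVA. It rose by 4.88 points in Sham offspring (limma adjusted p = 0.000548) and by 5.22 points in PM offspring (adjusted p = 0.000146), with a slight overlap in the former. The Mir125b-2 window of Mir99ahg (chr16:77644406-77649801) was at 46.2 to 50.02% in Sham and 46.9 to 49.2% in Sham-OVA, and differed by 0.308 points in Sham offspring (adjusted p = 0.808) and -0.94 points in PM offspring (adjusted p = 0.375).

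The other windows of the 2 genes that rose lay at several levels. Mir99ahg window 21 (chr16:77399059-77403710) rose from 52.4% ± 2.5 to 60.2% ± 2.33 (limma adjusted p = 7.72e-05) and from 52.2% ± 3.5 to 59.5% ± 2.27 (adjusted p = 9.77e-05). Mir100hg window 47 (chr9:41610379-41614484) rose from 45.9% ± 2.48 to 51.8% ± 1.21 (adjusted p = 6.33e-05) and from 45.9% ± 1.5 to 51.5% ± 1.96 (adjusted p = 6.4e-05). Mir99ahg window 48, just before the Mir99a hairpin, started higher, at 71.2%, and rose by 5.56 and 4.47 points (adjusted p = 0.000942 and 0.0036).

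Mir99ahg windows 1 and 70 also started above 60%. Window 1, at the start of the gene, rose from 66.1% ± 1.8 to 68.5% ± 1.35 in Sham offspring (2.44 points, limma adjusted p = 0.0146) and differed by -0.532 points in PM offspring (adjusted p = 0.593). Window 70 rose from 76.8% ± 1.2 to 79.5% ± 1.86 (2.66 points, adjusted p = 0.0341) and from 77.2% ± 2.47 to 80.0% ± 1.76 (2.78 points, adjusted p = 0.0192). The calls of window 70 were lost without some single libraries, and in Sham offspring also with the replicate number as a block (adjusted p = 0.0508).

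The effect of maternal PM2.5 was compared without and with OVA. For PM against Sham without OVA, limma called 0 of the 333 windows at an adjusted p under 0.05 (against 0% of all tested windows as DMRs), and 11 had an unadjusted p under 0.05 (3.3%, against 5.79%). For PM-OVA against Sham-OVA 0 were called and 21 had an unadjusted p under 0.05 (6.31%, against 5.96%). For the interaction 0 were called and 26 had an unadjusted p under 0.05 (7.81%, against 7.4%). A p that misses the threshold does not show that PM and Sham offspring were alike at these windows. The count of DMRs was 0 under every alternative setting tried for these 3 comparisons.

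The windows with the smallest p in these comparisons are given as values. Mir6404 (chr7:143927743-143937340) was at 73.3 to 78.0% (median 75.3%) in Sham and 74.8 to 79.8% (median 78.4%) in PM, a difference of 2.16 points (limma unadjusted p = 0.0138, adjusted p = 0.83). Mir100hg window 2 (chr9:41331099-41337103) was at 59.0 to 62.9% (median 60.4%) in Sham-OVA and 55.8 to 60.4% (median 57.2%) in PM-OVA, a difference of -3.34 points (unadjusted p = 0.00028, adjusted p = 0.786). The same window had the smallest interaction p, with a fall of 2.18 points after OVA in Sham and 6.38 points in PM offspring (interaction -4.2 points, unadjusted p = 0.00104, adjusted p = 0.551). PM and Sham values overlapped for Mir6404, as did PM-OVA and Sham-OVA values for Mir100hg window 2.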

How the data were processed

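DNA methylation was measured in 29 lung libraries (7 Sham, 7 Sham-OVA, 7 PM and 8 PM-OVA) by whole-genome enzymatic methyl-sequencing. The deposited values are the percent methylation of each window of 100 cytosines, averaged by the authors in SeqMonk over its cytosines and named for an overlapping gene. The submitters' processing notes name Trim Galore, DRAGEN and the build GRCm38. Because the deposited table holds percent values and no read counts, the count test of the study could not be applied and the depth is unknown.

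Windows with at least 3 values in each group (259167 of 260686) were fitted with limma 3.58.1 (R 4.3.3) on log2((P + 1)/(101 - P)), where P is the percentage, with 4 group means. Log2 values are on that scale, and the tests were 2-sided with Benjamini-Hochberg adjustment over all tested windows. The fit was tested on simulated data. Tables and sequences were handled with pandas 2.3.3 and pysam 0.24.0 in Python 3.11.15. Hairpins and mature sequences came from RefSeq, in which 121 of 135 microRNA gene names matched. Windows of a gene were numbered along the chromosome.

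The windows, lists and comparisons were chosen with earlier results of these data known. Named windows were the DMRs, the window with the largest mean difference over both OVA comparisons in each list, the smallest p of each maternal comparison and of the interaction, and every window named Mir142hg or Mir30a. The other named windows (Mir130a, Mir150, Mir143, Mir17hg, Mir146, Mir10a, Mir375, Mir203, Mir1952, Mir6354, Mir155hg windows 1 and 2, Mir9-3hg window 4, and further windows of Mir99ahg and Mir100hg) were chosen after their values were seen. Marker lists of leucocytes, lung epithelium and endothelium are given as mean levels per library. The alternatives were an offset of 5, untransformed percentages, complete windows only, autosomes only, a minimum difference of 5 points, an adjusted p under 1e-06, centring of each library, a trended robust prior, the replicate number as a block, and leaving out each library in turn.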

Additional observations from a re-analysis of the deposited data

Results flagged for a closer look

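In 8 of 148 groups of values screened, over the 36 named windows and the mean of the microRNA windows, 1 library lay far from the rest of its group by Dixon's criterion. Chance gives about 1 such group in 20.

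In the hairpin window of Mir155hg (window 4), PM replicate 5 was at 84.8%, and the nearest PM library at 83.0%. At the start of Mir155hg (window 1), Sham-OVA replicate 5 was at 2.16% and the nearest at 0.792%. In Mir17hg, Sham-OVA replicate 7 was at 68.4% and the nearest at 67.0%.

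In Mir130a, PM-OVA replicate 4 was at 27.6% and the nearest at 30.9%. In Mir1a-1, PM replicate 3 was at 54.1% and the nearest at 58.9%. In the Mir9-3 hairpin window (Mir9-3hg window 4), PM replicate 7 was at 4.98% and the nearest at 3.34%. The Mir100 hairpin window (Mir100hg window 35) had such a library in both PM groups, PM replicate 7 at 63.0% (nearest 64.2%) and PM-OVA replicate 6 at 58.6% (nearest 63.4%).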

How the results depend on the processing

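No called difference of a named window changed sign. In the OVA comparisons 7 recalculations of a difference that had not passed the test did, for Mir1a-1 (0.758 to -0.136 points without PM replicate 3), Mir155hg window 1 (-0.173 to 0.0867 without PM replicate 7, 0.627 centred), Mir100hg window 35 (0.28 centred) and Mir99ahg windows 1 (0.447 centred) and 55 (0.0398 centred) in PM offspring, and for Mir99ahg window 55 in Sham offspring (0.308 to -0.00154 without Sham replicate 1). The PM and interaction differences, of which 0 were called, also changed sign in some windows when a library was left out, as in the interaction of Mir142hg window 1 (-3.93 to 1.085 points). Of 2700 recalculations, of the OVA differences of 36 named windows and of the difference with the smallest p in each of the other 3 comparisons, 2651 stayed on the same side of the threshold, 36 lost it and 13 gained it. A minimum difference of 5 points gave 25 DMRs in Sham and 35 in PM offspring in place of 6 and 4. The shares of all tested windows at this and the following settings are not given, so these counts are not compared with them. An adjusted p under 1e-06 left 2 DMRs in Sham offspring (both in Mir155hg) and 4 in PM offspring, with 4 and 19 called windows. Leaving out 1 library gave 5 to 6 DMRs in Sham and 4 in PM offspring, and 143 to 167 and 191 to 203 called windows. Centring gave 5 and 3 DMRs, with Mir155hg window 4 at -9.8 points in Sham and window 3 at -9.55 points in PM offspring. Medians over windows in place of means were 73.57% in Sham, 72.32% in Sham-OVA, 73.71% in PM and 71.52% in PM-OVA.

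The fit with the replicate number as a block gave 6 and 4 DMRs and 160 and 191 called windows. Same-numbered libraries had a median residual correlation of 0.0141, against -0.00227 for other pairs. The number is that of the sample titles, which differs from the number in some library names. A batch shared by library name was therefore not tested. Under that block Mir100hg window 2 lost its call in Sham offspring (adjusted p = 0.0542). It also lost it after centring and without Sham-OVA replicate 1, 3, 4 or 5 or Sham replicate 3, 5 or 6. Calls were gained by Mir34a in Sham offspring (centring, without Sham-OVA replicate 7 or Sham replicate 3), Mir143 in PM offspring (centring, without PM-OVA replicate 6 or PM replicate 1) and Mir146 in PM offspring (without PM-OVA replicate 1, PM replicate 4 or 7, or Sham replicate 1). Mir375 lost its call in Sham offspring with an offset of 5, untransformed and without Sham-OVA replicate 3, 4, 5 or 6 or Sham replicate 2, 3, 6 or 7, and gained one in PM offspring after centring. Mir203 lost its call in PM offspring without PM-OVA replicate 1, 2, 6 or 7 or PM replicate 3, 4, 6 or 7. Mir99ahg window 70 lost its call in Sham offspring under the block (adjusted p = 0.0508) and without Sham-OVA replicate 4, 6 or 7 or Sham replicate 4, 5 or 6, and in PM offspring without PM replicate 6 or 7. Calls were also gained in Sham offspring by Mir100hg window 35 (without Sham replicate 4) and window 36 (without Sham-OVA replicate 7). The cause was not tested.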

Other observations

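Sham-OVA replicate 7 was the library of its group nearest to the unchallenged level in all 4 windows that fell by at least 10 points. It had 50% in Mir142hg window 1 (other Sham-OVA libraries 19.9 to 42.8%), 30.1% in Mir142hg window 2 (18.7 to 26.5%), 70.5% in Mir155hg window 3 (62.1 to 69.1%) and 78.1% in Mir155hg window 4 (66.3 to 74.3%). It was also the highest of its group for Mir150, Mir17hg, Mir1952 and Mir6354, and the lowest for Mir99ahg window 36 (55.6%, others 56.7 to 65.7%) and Mir130a (28.2%, others 31.7 to 35.6%). For Mir30a, at 49.98%, it was the median library of its group. Its mean over the leucocyte marker windows, 64.045%, was the highest of the Sham-OVA libraries, but only just above Sham-OVA replicate 4 at 63.969%. Without it the fall in Mir142hg window 1 was 26.4 points in Sham offspring.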
